A study of Mus musculus with 22 samples.

Results

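The cytosolic ribosomal protein genes were taken as the protein-coding genes of the mm9 annotation whose symbol is Rpl or Rps, then digits, then at most 1 of the letters a, l and x. They numbered 76 of 22350 protein-coding gene records on chromosomes 1 to 19 and X: 45 for proteins of the large subunit (Rpl) and 31 for proteins of the small subunit (Rps). The cells were MC3T3-E1, an established line of mouse osteoblast precursors used at passages 5 to 12, and bound DNA was mapped by chromatin immunoprecipitation sequencing (ChIP-seq). Differentiated cells had been kept for 15 days in medium with glycerol-2-phosphate and ascorbic acid, and undifferentiated cells in medium without them. Cells of either state received 100 nM calcitriol, the hormonal form of vitamin D, or ethanol vehicle for 3 h. The data used here were 22 deposited lists of bound regions, 1 for each antibody, state and treatment examined. Of these, 12 were for the transcription factors VDR (the vitamin D receptor), RXR (the retinoid X receptor), C/EBPβ and RUNX2. The other 10 were for the histone marks H3K4me3, H3K9ac, H4K5ac, H3K4me1 and H3K36me3. For VDR and RXR a calcitriol and a vehicle list of each state were used, and for the other antibodies the calcitriol lists alone. With 1 list per group there was no spread between replicates and no test could be made. Shares of genes are given with exact Clopper-Pearson 95% intervals, which cover counting error only. The lists hold no read counts, so their depth is unknown, and a longer list need not mean more binding. Factor lists held between 274 and 17950 sites, and histone lists between 6983 and 53858 regions. A gene was counted for a factor when the centre of a site lay within 1 kb of any of its annotated transcript starts, and for a mark when a region covered a start. Of 10 osteoblast marker genes, 7 carried H3K4me3 over a start in differentiated cells and 7 in undifferentiated cells. Alpl, Bglap and Ibsp, markers of maturing osteoblasts, carried it in neither state. None of the adipocyte, muscle, blood and neuron markers examined carried it.

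Ribosomal proteins are made in near equal numbers and assembled with ribosomal RNA in the nucleolus, so their genes are among the most transcribed in a growing cell. Their promoters are known for short pyrimidine tracts that begin at the transcription start, the 5′ terminal oligopyrimidine (TOP) motif through which mTOR controls translation of their mRNAs. ETS factors such as GABPA, YY1 and Sp1 are known to bind many of these promoters. VDR binds as a dimer with RXR to a direct repeat of hexamers with a 3-base spacer (DR3), mostly far from promoters. RUNX2 is the master regulator of the osteoblast lineage, and C/EBPβ takes part in osteoblast and adipocyte differentiation.

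Of the 76 genes, 56 had an entry in a RefSeq table of promoter windows (build GRCm38.p6, 250 bases before to 50 after the start). Each of the 56 windows was found once, without mismatch, near its gene in mm9, and 54 of the starts lay within 50 bp of a start in the annotation used here. The sequences below are from the 6 genes with a promoter in that table and a VDR site in every one of the 4 VDR lists. They show the bases around the start, where most of these site centres lay. The sites are 201 bp wide, so parts of them lie outside the printed stretches. Each runs 5′ to 3′ on the strand of the gene from 130 bases before the start to 20 after it. Capitals mark the ETS word CCGGAAG or the Sp1 word GGGCGG, on either strand. The mm9 positions are chrX:71516025-71516174 for Rpl10, chr7:52973311-52973460 for Rpl18, chrX:131120063-131120212 for Rpl36a, chr5:108329417-108329566 for Rpl5, chr10:79755046-79755195 for Rps15 and chr9:66793763-66793912 for Rps27l, all on the plus strand.
Rpl10: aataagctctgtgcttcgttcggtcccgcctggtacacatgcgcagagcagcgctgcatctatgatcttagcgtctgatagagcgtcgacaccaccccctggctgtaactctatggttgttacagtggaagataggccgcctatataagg
Rpl18: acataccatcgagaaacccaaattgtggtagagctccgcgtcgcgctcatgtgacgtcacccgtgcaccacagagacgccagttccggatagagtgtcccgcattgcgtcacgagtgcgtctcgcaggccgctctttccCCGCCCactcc
Rpl36a: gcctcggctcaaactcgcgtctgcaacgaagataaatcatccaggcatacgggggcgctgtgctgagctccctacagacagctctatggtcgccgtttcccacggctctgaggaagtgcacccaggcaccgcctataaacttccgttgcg
Rpl5: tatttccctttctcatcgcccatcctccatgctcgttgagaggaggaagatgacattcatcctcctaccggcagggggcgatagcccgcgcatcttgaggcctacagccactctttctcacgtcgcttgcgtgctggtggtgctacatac
Rps15: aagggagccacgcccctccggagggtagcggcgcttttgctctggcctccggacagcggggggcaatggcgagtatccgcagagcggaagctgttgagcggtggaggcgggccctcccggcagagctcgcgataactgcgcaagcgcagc
Rps27l: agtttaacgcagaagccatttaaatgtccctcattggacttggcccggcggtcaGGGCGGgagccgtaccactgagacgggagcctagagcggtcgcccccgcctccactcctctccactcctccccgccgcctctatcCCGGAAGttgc
In differentiated cells with calcitriol the centre of the VDR site lay 18 bases before the RefSeq start of Rpl10, 76 before that of Rpl18, 67 before that of Rpl36a, 28 before that of Rpl5, 49 before that of Rps15 and 51 before that of Rps27l, so each of the 6 centres falls inside the printed window. At Rpl5 the centre lay 51 bases after that start in undifferentiated cells under vehicle, beyond the printed window. In the printed windows Rps27l had both words and Rpl18 had the Sp1 word on the opposite strand. The other 4 printed windows held neither. Over the full RefSeq windows, Rpl10 and Rpl36a also held the Sp1 word.

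VDR was found at ribosomal protein genes more often than at other genes with an active promoter in all 4 of its lists. In differentiated cells with calcitriol, 15 of the 76 genes had a VDR site (19.7%, 11.5 to 30.5), against 3.33% of 9388 other genes with H3K4me3 over a start in that state. Under vehicle in differentiated cells it was 11 of 76 (14.5%, 7.45 to 24.4), against 2.33% of the other genes. Undifferentiated cells had VDR at 25 of 76 genes with calcitriol (32.9%, 22.5 to 44.6), against 11.3% of 7757 other genes. The vehicle list of undifferentiated cells also had VDR at 25 of 76 genes (32.9%), against 6.85% of the other genes. The ratio of the shares was 5.92 and 6.2 in the calcitriol and vehicle lists of differentiated cells, and 2.91 and 4.81 in those of undifferentiated cells. In each list the interval for ribosomal protein genes lay above that of the other genes.

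**Figure D1:**
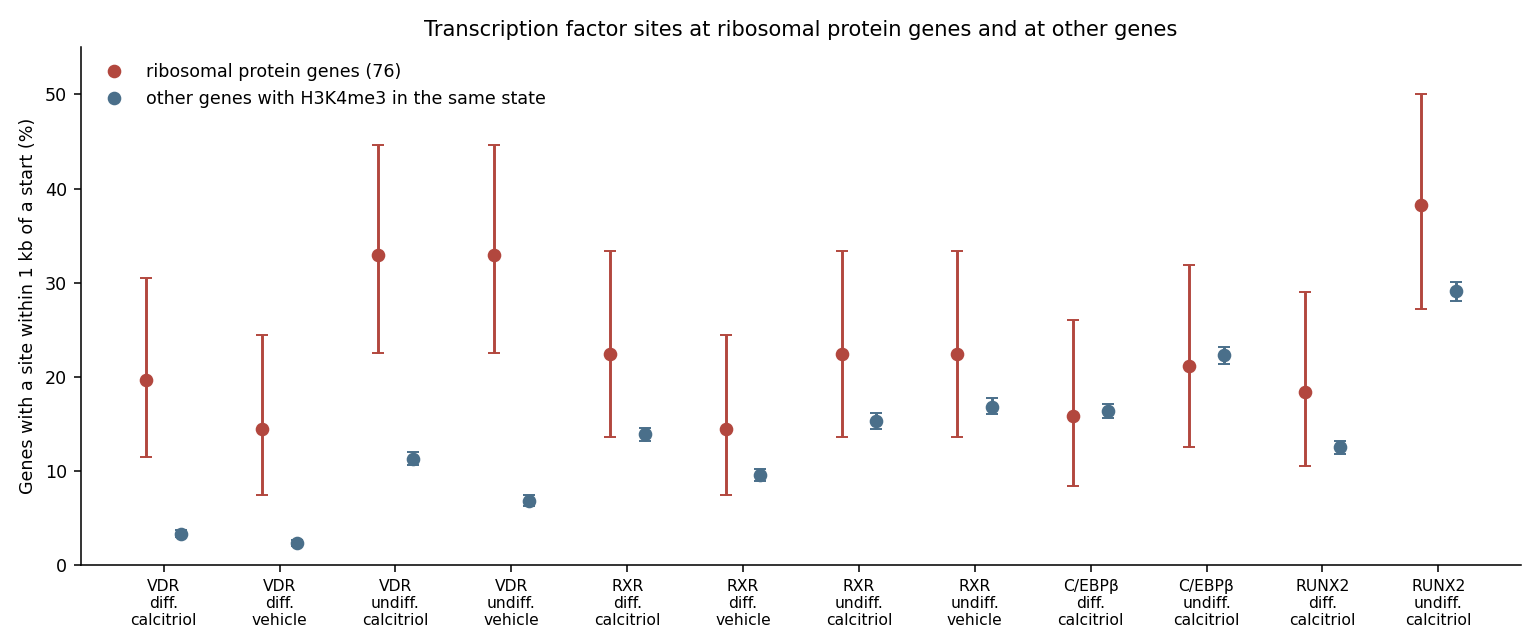
Share of genes with a site within 1 kb of a start (percent, vertical axis) in each of the 12 factor lists, for the 76 ribosomal protein genes (red) and the other genes with H3K4me3 in the same state (blue). Bars are exact 95% intervals that cover counting only. The red points lie well above the blue ones in the 4 VDR lists, and the intervals overlap in the RXR, C/EBPβ and RUNX2 lists.

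These genes made up a visible part of the short vehicle lists. Their 11 sites were 4.01% of the 274 VDR sites of differentiated cells under vehicle, and their 27 sites were 2.88% of the 937 VDR sites of undifferentiated cells under vehicle. With calcitriol, their 15 sites were 1.72% of 871 in differentiated cells and their 27 sites were 0.386% of 7000 in undifferentiated cells. The number of VDR sites at these genes was thus equal with and without hormone in undifferentiated cells, while the list as a whole grew. Most of that growth lay away from promoters with H3K4me3. Sites at other genes with H3K4me3 numbered 474 under vehicle and 806 with calcitriol, and the remaining sites 436 and 6167.

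In all, 28 of the 76 genes (36.8%) had VDR in at least 1 list, against 12.4% of 7457 other genes with H3K4me3 in both states. VDR in all 4 lists was found at 11 genes (14.5%), against 2.44% of the other genes. For the large subunit these were Rpl5, which forms a particle with 5S ribosomal RNA and Rpl11 and binds the p53 regulator Mdm2, Rpl10, which acts at the joining of the subunits, and Rpl18, Rpl32, Rpl36 and Rpl36a. For the small subunit they included Rps3a, Rps15, Rps20 and Rps27l, a paralog of Rps27 that p53 is known to induce. Rpl10 and Rpl36a lie on the X chromosome. The 17 genes with VDR in 1 to 3 lists were Rpl3, Rpl9, Rpl10a, Rpl11, Rpl13, Rpl21, Rpl26, Rpl27, Rpl37, Rpl38, Rps2, Rps4x, Rps9, Rps12, Rps14, Rps18 and Rps26. VDR was found at 8 large subunit genes (17.8%) and 7 small subunit genes (22.6%) in differentiated cells with calcitriol, and at 13 (28.9%) and 12 (38.7%) in undifferentiated cells with calcitriol.

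**Figure D2:**
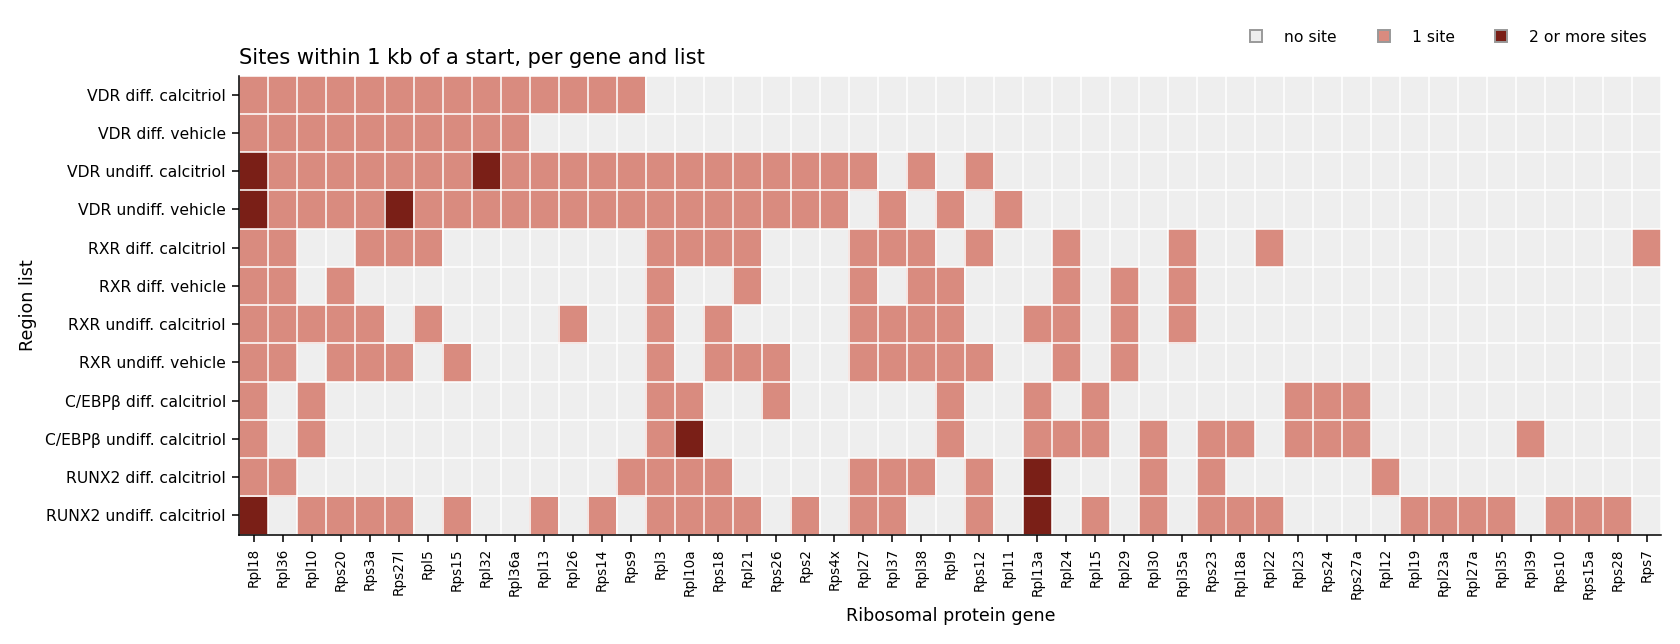
Number of sites within 1 kb of a start for 49 of the 51 ribosomal protein genes (columns) with a site in at least 1 of the 12 factor lists (rows). Grey is no site, light red 1 site and dark red 2 or more. The genes are sorted by the number of VDR lists, so the 10 genes shown that have VDR in all 4 lists stand at the left, and Rpl18 is filled in every row.

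The site centres repeated closely from list to list. At Rps3a, whose protein belongs to the small subunit, the centres lay 11 and 20 bp before the nearest start in differentiated cells with calcitriol and vehicle, and 13 and 11 bp before it in undifferentiated cells with calcitriol and vehicle. At Rpl36a they lay 67 and 70 bp before the start in differentiated cells, and 76 and 74 bp before it in undifferentiated cells. At Rpl18 the centres of the site common to the 4 lists lay 76 and 71 bp before the start in differentiated cells, and 65 and 69 bp before it in undifferentiated cells. Rpl10 had its centres 14 and 16 bp before the start in differentiated cells, and 70 and 69 bp before it in undifferentiated cells, so its site lay farther upstream in the undifferentiated lists. Rpl32 was the most distant, at 202 and 284 bp before the start in differentiated cells and 189 and 192 bp before it in undifferentiated cells. Rpl36 had centres 47 and 42 bp before the start in differentiated cells, and 55 and 58 bp before it in undifferentiated cells. For Rps15 they were 49 and 45 bp before it in differentiated cells, and 67 and 65 bp before it in undifferentiated cells. Both genes thus had their sites nearer to the start in the differentiated lists. Like Rps15, Rps27l had the centres of the site common to the 4 lists nearer to the start in differentiated cells, at 51 and 35 bp, than in undifferentiated cells, at 62 and 64 bp. Rps20 was the reverse, with 68 and 64 bp in differentiated cells and 44 and 45 bp in undifferentiated cells. In differentiated cells with calcitriol the sites of 4 of these genes not shown above were chr6:115758867-115759067 for Rpl32, chr17:56752671-56752871 for Rpl36, chr3:85946535-85946735 for Rps3a and chr4:3762780-3762980 for Rps20 (mm9). Taking for each of the 11 genes the 4 centres that lie closest together, they spanned 9 to 95 bp (median 22 bp), against a median of 45 bp at the 182 other genes with VDR in all 4 lists. Since the sites in the files are 201 bp wide, the 4 calls overlapped at each of the 11 genes.

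Most of these sites sat just before the start. Measured from the most upstream coding start of a gene, the median centre was 50 bp upstream in the differentiated calcitriol list and 39.5 bp upstream in the differentiated vehicle list, and 55 and 59 bp upstream in the undifferentiated calcitriol and vehicle lists. The stretch of 100 bp before the start held 12 of 14 centres (85.7%) in differentiated cells with calcitriol, against 45.6% at other genes, and 8 of 10 (80%) under vehicle, against 53.3%. In undifferentiated cells it held 15 of 25 (60%) with calcitriol, against 27.1% at other genes, and 17 of 25 (68%) under vehicle, against 27.8%. At other genes the VDR medians were 39 bp upstream in both lists of differentiated cells, and 55 and 38 bp upstream in the calcitriol and vehicle lists of undifferentiated cells. RXR centres had medians between 16.5 and 41 bp upstream over the 4 lists, against 66 to 73.5 bp at other genes. That difference depends on the start chosen. From the RefSeq starts, known for part of the genes, RXR medians were -17 and -62.5 bp in differentiated cells with calcitriol and vehicle (minus is upstream). They were -53.5 and -52 bp in undifferentiated cells. Other genes were not measured from RefSeq starts. C/EBPβ sites lay farther out, with medians of 158 bp upstream in differentiated cells and 167 bp upstream in undifferentiated cells, where those of other genes were 78 and 69 bp upstream.

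**Figure D3:**
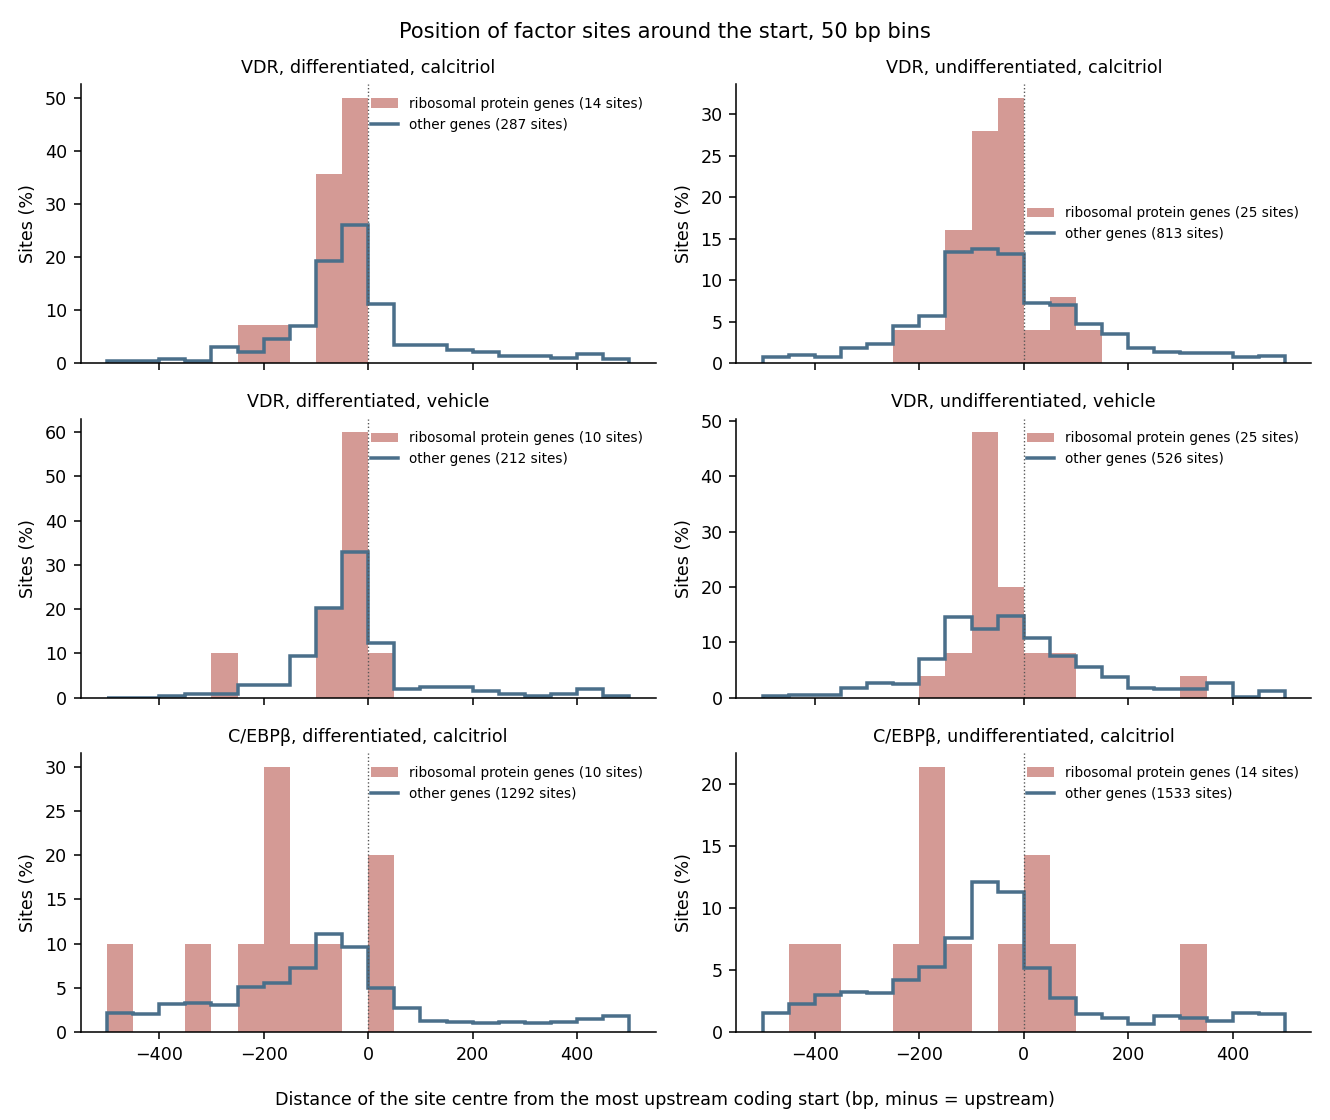
Percent of sites (vertical axis) by distance of the site centre from the most upstream coding start of the gene (bp, horizontal axis, 50 bp bins), for ribosomal protein genes (filled red) and other genes with H3K4me3 (blue line). The VDR panels show the red bars massed in the 100 bp before the start, 85.7% of the sites in differentiated cells with calcitriol, and the C/EBPβ panels show them farther upstream.

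No VDR site at a ribosomal protein gene held the DR3 element. A match with at most 1 mismatch in 200 bp around the centre was found at 0 of 15 sites in differentiated cells with calcitriol, which allows a share of up to 20%, against 4.76% of 273 VDR sites at other genes with H3K4me3 and 33.6% of the 583 remaining VDR sites. Under vehicle it was 0 of 11 in differentiated cells, which allows up to 27.3%, against 0.532% and 4%. In undifferentiated cells it was 0 of 27 with calcitriol, which allows up to 11.1%, against 6.33% of 806 sites at other genes and 16% of 6167 remaining sites. Under vehicle in undifferentiated cells it was again 0 of 27, against 1.27% and 4.59%. These limits rest on 3 counts and cover counting error only, and the lists of a state share most of their sites. The limits lie above the shares at other genes, so a difference from those was not detectable with so few sites. Against the 33.6% and the 16% of the remaining sites with calcitriol, the limit is lower in both states. The single half-site AGGTCA was found at 0 of 15 sites in differentiated cells and 1 of 27 in undifferentiated cells with calcitriol (3.7%), against 8.79% and 12.5% of sites at other genes. Under vehicle it was found at 0 of 11 sites in differentiated cells and 2 of 27 in undifferentiated cells (7.41%), against 7.98% and 7.17% at other genes. The ETS word CCGGAAG, by contrast, was found at 3 of 15 sites in differentiated cells with calcitriol (20%), against 28.2% of sites at other genes and 3.26% of the remaining sites. In undifferentiated cells it was found at 6 of 27 sites with calcitriol (22.2%) and 9 of 27 under vehicle (33.3%), against 18.5% and 24.7% of sites at other genes and 1.39% and 9.63% of the remaining sites. Under vehicle in differentiated cells it was found at 2 of 11 sites (18.2%), against 35.6% at other genes and 17.3% of the remaining sites, so there the share was close to that of the remaining sites. A match to these letters is a description of the window and does not show which protein was bound there.

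In differentiated cells VDR was called again at part of the genes that had it in undifferentiated cells, and at no further ones. With calcitriol, 15 of the 25 genes with VDR in undifferentiated cells had it again in differentiated cells (60%, 38.7 to 78.9), against 30.7% of other genes. None of the 51 genes without VDR in undifferentiated cells gained it, which allows up to 5.88%, where 0.0758% of other genes did. Gains were thus almost absent at other genes too, and their absence is not particular to ribosomal protein genes. The 10 genes called in undifferentiated cells alone were Rpl3, Rpl10a, Rpl21, Rpl27, Rpl38, Rps2, Rps4x, Rps12, Rps18 and Rps26. Under vehicle, 11 of 25 genes were called again (44%, 24.4 to 65.1), against 35.7% of other genes, and again 0 of 51 gained VDR, against 0.0433%. The VDR lists of differentiated cells are far shorter than those of undifferentiated cells, and the differentiated cultures were homogenized and spun through sucrose, a step the others did not receive. State, preparation and list length cannot be told apart.

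Calcitriol changed the VDR calls at few of these genes. In differentiated cells the 11 genes with VDR under vehicle all had it with calcitriol too (100%, 71.5 to 100), against 96.8% of other genes, and 4 genes gained it, namely Rpl13, Rpl26, Rps9 and Rps14. These 4 were 6.15% of the 65 genes without VDR under vehicle, against 1.16% of other genes. In undifferentiated cells 22 of 25 genes had VDR in both lists (88%, 68.8 to 97.5), against 88.4% of other genes. Calls for Rpl27, Rpl38 and Rps12 appeared with calcitriol, and those for Rpl9, Rpl11 and Rpl37 appeared under vehicle alone. The 3 genes gained were 5.88% of 51, against 5.7% of other genes, a share close to the background. The share of these genes with VDR in undifferentiated cells was 32.9% with calcitriol and 32.9% under vehicle. At other genes it was 11.3% with calcitriol and 6.85% under vehicle. The shares called again and gained were close in both sets of genes, so the equal totals do not show a different response to the hormone.

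RXR, the partner of VDR, was found at 17 of the 76 genes with calcitriol in differentiated cells (22.4%, 13.6 to 33.4), against 13.9% of other genes, and at 11 under vehicle (14.5%), against 9.55%. In undifferentiated cells it was found at 17 genes with calcitriol (22.4%), against 15.3%, and at 17 under vehicle (22.4%), against 16.8%. In each RXR list the share of other genes lay inside the interval for ribosomal protein genes. In all, 25 genes had RXR in at least 1 list (32.9%), against 24.7% of other genes with H3K4me3 in both states, and 6 had it in all 4 (7.89%), against 6.45%. The 6 were Rpl3, which reaches towards the peptidyl transferase centre, Rpl18, Rpl24, Rpl27, Rpl36 and Rpl38, which is known for its part in the translation of Hox mRNAs in the mouse embryo, all of the large subunit. In undifferentiated cells with calcitriol, RXR was found at 14 large subunit genes (31.1%) and 3 small subunit genes (9.68%), and under vehicle in differentiated cells at 10 (22.2%) and 1 (3.23%). With calcitriol in differentiated cells it was 12 (26.7%) and 5 (16.1%), and under vehicle in undifferentiated cells 10 (22.2%) and 7 (22.6%), so the split differed between lists.

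RXR calls at these genes differed between lists in both directions. With calcitriol, 11 of 17 genes called in undifferentiated cells were called again in differentiated cells (64.7%), against 69.1% of other genes, and 6 of 59 genes gained RXR (10.2%), against 5.51%. Under vehicle, 10 of 17 were called again (58.8%), against 48.8%, and 1 of 59 gained it (1.69%), against 2.75%. Setting calcitriol against vehicle, 8 of 11 genes were called again in differentiated cells (72.7%), against 81.8%, and 9 of 65 gained RXR (13.8%), against 7.52%. In undifferentiated cells 12 of 17 were called again (70.6%), against 65.4%, and 5 of 59 gained it (8.47%), against 5.29%. The 9 genes with RXR gained with calcitriol in differentiated cells were Rpl5, Rpl10a, Rpl22, Rpl37, Rps3a, Rps7, Rps12, Rps18 and Rps27l.

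Counted over all lists together, RXR accompanied VDR at these genes about as often as elsewhere. Within the calcitriol lists it did so at a lower share than at other genes. Of the 28 genes with VDR in a list, 19 (67.9%) also had RXR in a list, against 68.1% of other genes with VDR, a share at the background. The 9 with VDR and no RXR in any list included Rpl11, Rpl13, Rpl32, Rpl36a, Rps2, Rps4x, Rps9 and Rps14, of which Rpl32 and Rpl36a had VDR in all 4. At the level of sites, 5 of 15 VDR sites (33.3%) overlapped an RXR site in differentiated cells with calcitriol, and 11 of 27 (40.7%) did in undifferentiated cells with calcitriol. The overlap of sites was not counted at other genes, so these shares have no background. An RXR call was made at 33.3% of genes with VDR and 19.7% of genes without it in differentiated cells with calcitriol, against 41.5% and 12.9% among other genes. In undifferentiated cells with calcitriol it was 44% and 11.8%, against 56.7% and 10% among other genes.

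For RUNX2 and C/EBPβ the share of other genes lay inside the interval for ribosomal protein genes in each list. RUNX2 was present at 14 genes in differentiated cells (18.4%, 10.5 to 29), against 12.5% of other genes, and at 29 in undifferentiated cells (38.2%, 27.2 to 50), against 29.1%. Of those 29 genes, 10 were called again in differentiated cells (34.5%), against 38% of other genes, and 4 of 47 gained RUNX2 (8.51%), against 3.22%. The 4 were Rpl12, Rpl36, Rpl38 and Rps9. The RUNX word TGTGGTT was found at 1 of 15 RUNX2 sites at these genes in differentiated cells (6.67%) and 3 of 31 in undifferentiated cells (9.68%), against 15.9% and 11.6% at other genes and 37.6% and 36.2% of the remaining sites. C/EBPβ was present at 12 genes in differentiated cells (15.8%, 8.43 to 26), against 16.4% of other genes, and at 16 in undifferentiated cells (21.1%, 12.5 to 31.9), against 22.3%. Of the 16, 11 were called again (68.8%), against 69.4%, and 1 of 60, Rps26, gained it (1.67%), against 1.71%. The C/EBP word TTGCNNAA was found at 3 of 12 C/EBPβ sites in differentiated cells (25%) and 5 of 17 in undifferentiated cells (29.4%), against 43.5% and 35.7% at other genes.

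Among single genes, Rpl18 had a site in all 12 factor lists and Rpl3 in 10, missing VDR in both differentiated lists. Rpl36 had 9, without C/EBPβ in either state. Rpl10, Rps3a and Rps20 had 8 each. At Rpl18 there were 2 VDR sites in undifferentiated cells with calcitriol and 2 under vehicle, at separate annotated starts. Rpl18 spans chr7:52970827-52976205 in mm9. The start of Sphk2, a sphingosine kinase gene, lies within 1 kb of Rpl18, so those sites cannot be given to 1 gene. Likewise, Rpl9 shares its promoter region with Lias, Rps18 with Vps52 and Rps2 with Rnf151, and 14 of the 76 genes have a coding neighbour that close. At the other extreme, 25 of the 76 genes (32.9%) had no site in any factor list, against 45.1% of other genes with H3K4me3 in both states. Among them were Rpl4, Rpl6, Rpl7, Rpl8, Rps3, Rps6, the ribosomal protein phosphorylated by S6 kinases, and Rps19, which were chosen for naming after their values were seen.

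Marks of active promoters covered these genes almost without exception. H3K4me3 lay over a start of 73 of the 76 genes in differentiated cells (96.1%, 88.9 to 99.2), against 42.1% of all other protein-coding genes, and of 73 in undifferentiated cells, against 34.8%. H3K9ac and H4K5ac, acetylations found at active promoters, lay over the starts of the same 73 genes in both states. Among other genes with H3K4me3 the shares were 99.9% and 99.5% for H3K9ac and 99.4% and 99.6% for H4K5ac, in differentiated and undifferentiated cells. H3K4me1 lay over 73 genes in each state, against 96.4% of other genes in differentiated cells and 96.1% in undifferentiated cells. The 3 genes without H3K4me3 were Rpl3l, the paralog of Rpl3 known from striated muscle, and Rpl10l and Rpl39l, known from testis. Rpl39l carried H3K4me1 in both states and none of the 3 had a factor site in any list. Rpl39 was the gene with H3K4me3 and no H3K4me1 over a start.

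H3K4me3 regions were narrower in the list of differentiated cells, at these genes and at other genes. With 1 list per state, the state, the preparation and the unknown depth cannot be told apart here either. The widest region over a start had a median of 2779 bp in differentiated cells and 5891 bp in undifferentiated cells, against 2327 and 5476 bp at other genes. The ratio of differentiated to undifferentiated width ranged from 0.156 to 1.07 with a median of 0.532, against 0.481 at other genes. Rps21 was the 1 gene of 73 with a wider region in differentiated cells (1.37%), at 3228 against 3019 bp. Among 7457 other genes 1.72% had a wider region there, a share close to that of the ribosomal protein genes. In differentiated cells the narrowest regions included those over Rpl22 (1822 bp) and Rpl29 (1831 bp), and the widest included those over Rpl13a (7226 bp) and Rpl35 (7152 bp). In undifferentiated cells the narrowest lay over Rps29 (2333 bp), Rpl22 (2560 bp) and Rpl15 (3018 bp), and the widest over Rpl19 (19829 bp), Rpl27a (14496 bp) and Rps15a (12474 bp). By the authors' deposited score, whose meaning the sources used here leave out, the regions of ribosomal protein genes ranked at a median of 85.6% of the list in differentiated cells and 66.1% in undifferentiated cells, against 54.7% and 53.3% for other genes.

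**Figure D4:**
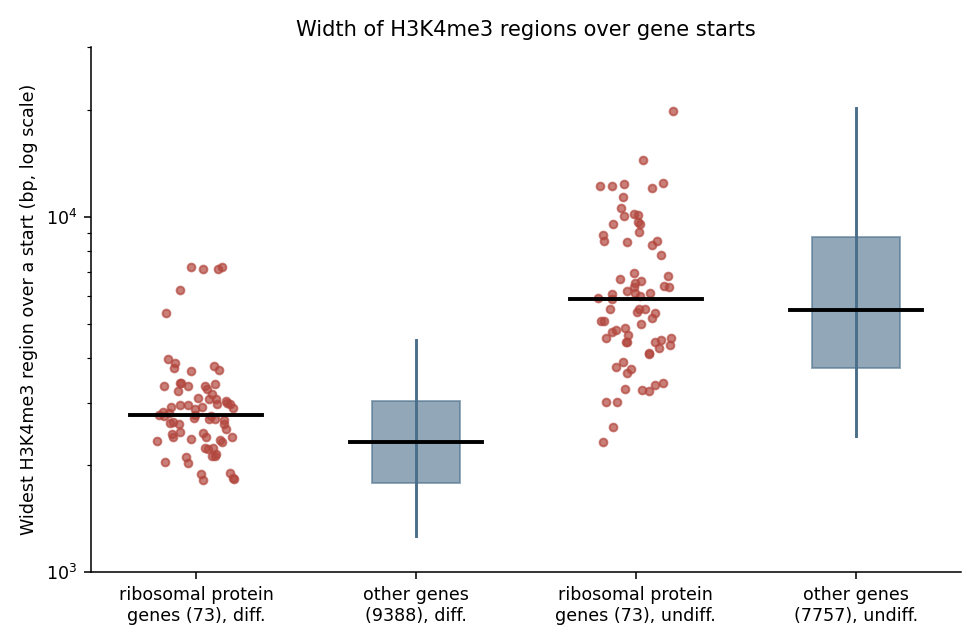
Width of the widest H3K4me3 region over a start (bp, log scale). Red points are the 73 ribosomal protein genes with the mark, boxes give the 25% to 75% range and whiskers the 5% to 95% range of the other genes, and black lines are medians. Both kinds of gene have narrower regions in the differentiated list. The medians for the ribosomal protein genes are 2779 bp there and 5891 bp in the undifferentiated list.

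H3K36me3, a mark laid down behind elongating RNA polymerase II over gene bodies, reached the start of 60 of the 76 genes in differentiated cells (78.9%, 68.1 to 87.5), against 50% of other genes with H3K4me3, and of 67 in undifferentiated cells (88.2%, 78.7 to 94.4), against 56.5%. From undifferentiated to differentiated cells 59 of 67 genes were called again (88.1%), against 90.5% of other genes, and 1 of 9, Rps3a, gained the mark (11.1%), against 2.34%. Every one of the 73 genes with H3K4me3 had at least 50% of its body under H3K36me3 in both states, against 81.5% of other genes in differentiated and 87.3% in undifferentiated cells. These are short genes, with a median length of 3232 bp against 24449 bp for other genes in differentiated cells. Other genes of up to 5 kb had H3K36me3 over a start at 33.1% in differentiated and 43.1% in undifferentiated cells. Counting 1 start per gene, the share of ribosomal protein genes was 47.4% in differentiated cells, against 6.6% of other genes with H3K4me3 counted in the same way, and 63.2% in undifferentiated cells, against 14.2%.

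VDR at ribosomal protein genes was set beside gene groups with related functions. With calcitriol in differentiated cells it was found at 15 of 76 cytosolic ribosomal protein genes (19.7%), against 5 of 76 mitochondrial ribosomal protein genes (6.58%), 3 of 29 translation initiation factor genes (10.3%), 1 of 34 ribosome biogenesis genes (2.94%) and 0 of 9 elongation factor genes. In undifferentiated cells with calcitriol it was found at 25 cytosolic ribosomal protein genes (32.9%), against 11 mitochondrial ribosomal protein genes (14.5%), 7 initiation factor genes (24.1%), 5 biogenesis genes (14.7%) and 1 elongation factor gene (11.1%). In that state it was also found at 2 of the 7 genes for ribosomal proteins with other names, Rplp0 of the ribosomal stalk and Gnb2l1, which encodes Rack1. In differentiated cells with calcitriol VDR was found at 0 of these 7. The groups were not limited to genes with H3K4me3. In undifferentiated cells it covered 76.3% of mitochondrial and 96.1% of cytosolic ribosomal protein genes, and in differentiated cells 98.7% and 96.1%. Among initiation factors, Eif3g and Eif5b had VDR in all 4 lists, as had Mrpl12, Mrps2, Mrps10 and Mrps33 among mitochondrial ribosomal proteins, named here after their values were seen. For RXR in differentiated cells with calcitriol the order was turned, at 17 cytosolic (22.4%) against 22 mitochondrial ribosomal protein genes (28.9%). The higher H3K4me3 score of ribosomal protein genes moved with this result, and its part in it was not tested. Among other genes whose H3K4me3 score was in the top 25% of the list, VDR was found at 4.09% with calcitriol in differentiated cells and at 15.5% with calcitriol in undifferentiated cells. Over those genes the share for RXR with calcitriol was 20.9% in differentiated and 20.9% in undifferentiated cells, close to the 22.4% of ribosomal protein genes. Lists from control antibodies were not analysed here, so whether such calls also arise without VDR antibody was not tested.

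In their promoter windows these genes held ETS words and pyrimidine tracts more often than other genes with H3K4me3. Over the 56 genes in the RefSeq table, CCGGAAG on either strand was found in 21 (37.5%), against 21.7% of 5635 other genes with H3K4me3 in undifferentiated cells and 9.12% of 27025 promoters in all. Among the 391 of those other genes with VDR under vehicle in undifferentiated cells it was found in 34%, close to the ribosomal protein genes. The YY1 word AAGATGG was found in 8 (14.3%), against 8.29% and 6.48%. The Sp1 word GGGCGG was found in 31 (55.4%), against 70.2% and 35.9%, and the half-site AGGTCA in 6 (10.7%), against 10.7% and 16%. TGTGGTT was found in 1 (1.79%), against 3.21% and 5.37%, and TTGCNNAA in 3 (5.36%), against 6.94% and 10.8%. The word TCTCGCGA, added after the values were seen, was found in 9 (16.1%), against 2.98% and 1.08%. Each word was searched on both strands without mismatch. No word contains another, but CCGGAAG and AAGATGG can share the letters AAG. The ETS word did not separate genes with VDR, at 8 of 20 (40%) with VDR in a list and 13 of 36 (36.1%) with none. TCTCGCGA was found in 1 of 20 (5%) with VDR and 8 of 36 (22.2%) without.

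**Figure D5:**
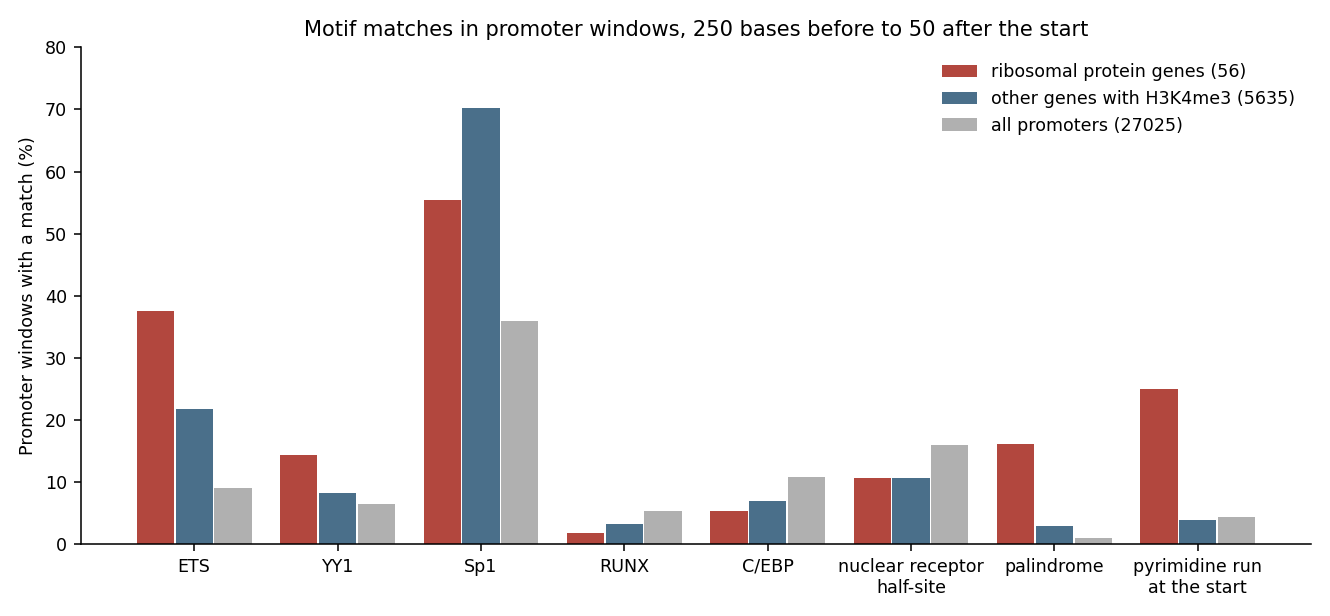
Percent of promoter windows with a motif match (vertical axis), for ribosomal protein genes (red), other genes with H3K4me3 in undifferentiated cells (blue) and all promoters of the table (grey). Red bars are the tallest of their group for ETS (37.5%), YY1 (14.3%), TCTCGCGA (16.1%) and the pyrimidine run at the start (25%). TCTCGCGA is drawn under the label palindrome, though it is not its own reverse complement.

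A run of at least 5 pyrimidines beginning at the RefSeq start, a broad form of the TOP motif, was found in 14 of 56 genes (25%). It was found in 3.83% of other genes and 4.36% of all promoters. With C as the first base it was found in 11 of 56 genes (19.6%), against 2.25% and 2.49%. A run with either first base was found in 2 of 20 genes with VDR in a list (10%), Rpl38 and Rps18, and 12 of 36 without (33.3%). The 6 longest are shown from 15 bases before to 15 after the start, with the run in capitals, to set them beside the VDR promoters above. The mm9 positions are chr7:116662694-116662723 for Rpl27a on the plus strand, and on the minus strand chr14:19103486-19103515 for Rpl15, chr2:38860637-38860666 for Rpl35, chr17:27772175-27772204 for Rps10, chr17:34092596-34092625 for Rps18 and chr4:86503257-86503286 for Rps6.
Rpl27a: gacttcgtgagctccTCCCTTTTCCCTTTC
Rpl15: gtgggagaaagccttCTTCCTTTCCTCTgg
Rpl35: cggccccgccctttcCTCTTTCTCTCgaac
Rps10: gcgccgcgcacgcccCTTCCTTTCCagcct
Rps18: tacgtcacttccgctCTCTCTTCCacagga
Rps6: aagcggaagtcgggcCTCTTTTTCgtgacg
The runs were 16 bases at Rpl27a, of which 15 are shown, 13 at Rpl15, 11 at Rpl35, 10 at Rps10, and 9 each at Rps18 and Rps6. That of Rpl27a begins with T and the others with C. Rps6 had no factor site in any list. Rpl27a, Rpl35 and Rps10 had RUNX2 in undifferentiated cells as their sole call, which at Rps10 lay 2318 bp upstream of the start printed here. Rpl15 had C/EBPβ in both states and RUNX2 in undifferentiated cells. Rps18 had VDR in both lists of undifferentiated cells and in neither of differentiated cells. It also had RUNX2 in both states, and RXR in every list but that of differentiated cells under vehicle. The count depends on the exact base at which RefSeq places the start. With runs of at least 5 that begin up to 2 bases either side of it, a setting added after the values were seen, 21 of 56 genes had one (37.5%), against 13.5% of other genes and 13% of all promoters. By that measure it was 5 of 20 genes with VDR in a list (25%) and 16 of 36 without (44.4%). Of the 6 VDR promoters printed above, none had a run at the start itself, but Rpl18 and Rps27l had one that begins at the next base. In all, 20 of the 76 genes were not in the table.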

How the data were processed

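ChIP-seq reads had been processed with Bowtie and HOMER on mm9, per the submitters' processing notes; the sources used here give no versions or settings. The deposited lists hold position, name, score and strand of each region. Region names count merged peaks, so a list was taken to hold regions shared by replicates, none of which had a list of its own. The score deposited by the authors was 0 throughout the factor lists, and its meaning in the histone lists is not given. Per the labels' protocols, differentiated cultures were also homogenized and spun through sucrose, and the text names H3K5Ac where the labels give H4K5Ac. Vehicle lists of C/EBPβ, RUNX2 and the histone marks were not analysed here.

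Regions on chromosomes 1 to 19 and X were placed on GENCODE vM1 starts with Python 3.11.15 (numpy 2.4.6, scipy 1.17.1) and samtools 1.23.1. A total of 33 mitochondrial and 63 Y regions over the 22 lists were left out. The gene counting was tested on simulated data: 200 of 200 planted genes were recovered among 400. Named genes were those without H3K4me3 in a state, those with VDR in any list, the 15 with most factor lists and the 3 widest and narrowest H3K4me3 regions per state. Some genes enter the counts but are not reported by name here. The genes, lists and comparisons were chosen with earlier results of these data known. Alternatives varied the window, the starts, the mark overlap, the score and the comparison genes.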

Additional observations from a re-analysis of the deposited data

How the results depend on the processing

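Of 332 alternative values, 286 stayed within the interval of the value reported. The shares of ribosomal protein genes with VDR stayed within it for windows of 500 bp and 2 kb and for 1 start per gene. Leaving out the lowest 25% of regions by score, H3K4me3 in undifferentiated cells covered 84.2% of them, and its ratio to other genes was 2.89 in differentiated and 3.13 in undifferentiated cells. With 1 start per gene, H3K36me3 covered 47.4% in differentiated and 63.2% in undifferentiated cells (ratios 7.18 and 4.45, net change -15.8 percentage points), and allowing 500 bp around a start 96.1% in both (net change 0). Set against all other protein-coding genes, most of which lack H3K4me3, the ratios in differentiated and undifferentiated cells were 13.2 and 6.59 for VDR with calcitriol, 14 and 11.5 for VDR under vehicle, 3.42 and 3.36 for RXR with calcitriol, 3.23 and 3.09 for RXR under vehicle, 1.92 and 1.94 for C/EBPβ, 3.03 and 2.97 for RUNX2, 1.74 and 1.83 for H3K4me1, and 3.09 and 3.18 for H3K36me3. The ratios for H3K9ac and H4K5ac, just under 1 in the main comparison because of the 3 genes without H3K4me3, turned to 1.87 and 1.94 for H3K9ac and to 1.81 and 1.8 for H4K5ac against all genes. Among genes with H3K4me3 they were 1 and 1.01 for H3K9ac and 1.01 and 1 for H4K5ac.

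The alternatives that follow on neighbours with coding starts, short genes, genes with a high H3K4me3 score and the place of the pyrimidine run were chosen after seeing the data. A pyrimidine run was found at 37.5% of promoters when it could begin up to 2 bases from the start, and at 25% when it had to begin there. Against other genes of up to 5 kb the H3K36me3 ratios were 2.39 in differentiated and 2.04 in undifferentiated cells. Over all 76 genes VDR was found at 19.7% in differentiated and 32.9% in undifferentiated cells with calcitriol, and at 14.5% and 32.9% under vehicle. None of the 3 genes that lack H3K4me3 had VDR, so leaving them out changes the denominator alone. Without them the net change in genes with VDR between differentiated and undifferentiated cells was -13.7 percentage points with calcitriol and -19.2 under vehicle. Without genes with any annotated neighbour within 1 kb it was -14.3 and -21.4. The net gain with calcitriol over vehicle in differentiated cells was 5.48, 7.14 and, without genes with a coding neighbour, 6.45. The net change in RXR under vehicle was -11.9 without genes with any neighbour, and that in C/EBPβ was -7.89 with a 2 kb window. The cause was not tested where none is given. No paired analysis was possible because each group had 1 list. The unknown depth limits all comparisons between lists.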
